A study of Mus musculus with 24 samples.

Results

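Expression of 10 genes of the integrated stress response was examined in the tibialis anterior, a muscle of the lower leg, of 8 mice aged 6 weeks. The genes were Atf4, Atf3, Ddit3, Xbp1, Trib3, Asns, Chac1, Herpud1 and the hormone genes Fgf21 and Gdf15. They were chosen by name: every probe whose platform symbol was ATF3, ATF4, DDIT3, TRIB3, ASNS, CHAC1, FGF21, GDF15, XBP1 or HERPUD1 was taken. Each symbol had 1 probe, so the genes gave 10 of the 26423 probes of the array and 10 of its 17742 named genes.

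Both groups had a mixed C57BL6/J;129S1/SvImJ background and carried Myf6 cre/+, a driver whose gene is expressed in skeletal muscle fibres. The 4 control animals were Myf6 cre/+; Hira flox/+, so they kept an intact Hira allele in every cell. The 4 animals labelled Hira CKO were Myf6 cre/+; Hira flox/-, so cells without cre had a floxed and a null allele. Hira encodes a chaperone that places the histone variant H3.3 into chromatin. The sex of the animals was not given in the labels. Each animal was measured on 3 arrays from 5 micrograms of Cy5-labelled total RNA, which gave 24 arrays. The animal was the replicate (n = 4 per group), since the 3 arrays of an animal repeat 1 animal.

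The deposited intensities were on a common scale, with array medians between 431.5 and 433.5. The only Hira probe did not show a loss. It read 495 ± 48.9 in the controls and 558 ± 38.9 in the Hira CKO animals (mean intensity ± SD, n = 4 each), a difference of 0.17 on the log2 scale (limma adjusted p = 0.193, exact permutation p = 0.114). The sources used here do not say whether the probe falls inside the floxed segment, so it does not check the labels. Of the muscle fibre marker list, 5 of 10 genes were measured and 3 of these were lower in Hira CKO (Acta1, Ckm and Ttn). The summed level of those 5 was 1041854 to 1186638 in controls and 935265 to 999499 in Hira CKO, so the groups did not overlap. None of the measured markers of other cell types was at 0. Probes of olfactory receptor genes, taken as silent, had a median of 117.4, so this does not show that a cell type was present. The endothelial list had 2 of 5 lower (summed level 15090 to 17663 in controls, 13133 to 15284 in Hira CKO). The smooth muscle and pericyte list had 1 of 4 lower (19612 to 29605, then 16022 to 22648). The lymphocyte list had 2 of 4 higher (1824 to 3178, then 2906 to 4601), but Cd79a, its brightest gene, was not called (limma adjusted p = 0.156). Neither of 2 satellite cell markers was called, although their summed levels did not overlap (319 to 349, then 269 to 289). Over all 17742 genes at their brightest probe, 11% were higher and 10.3% lower. The part of these shifts in the results that follow was not tested. In whole muscle, fewer cells of a type and less RNA per cell cannot be told apart.

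The integrated stress response is a shared route by which cells answer amino acid shortage, misfolded protein in the endoplasmic reticulum (ER), mitochondrial faults, haem lack and viral RNA. Each signal activates a kinase that phosphorylates the translation factor eIF2. General protein synthesis then slows, while ATF4 is translated more and switches on genes for amino acid supply, redox balance and further stress factors. Because ATF4 is controlled largely at translation, its mRNA is an incomplete measure of the protein. Skeletal muscle under mitochondrial or ER stress can make FGF21 and GDF15, which act on other organs as hormones.

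ATF4 binds with C/EBP partners to a composite site whose core can be written TGATGNAA, or TTNCATCA on the other strand. The 250 bases before each RefSeq gene start (GRCm38.p6) were searched for it on both strands. The core was found in 5 of the 10 genes, namely Asns, Atf3, Chac1, Fgf21 and Herpud1, and in 3.45% of all 32851 such windows. The 36 bases around each match are shown because they carry the letters these 5 genes share, read 5′ to 3′ on the strand of the gene with the match in capitals.

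Atf3, chr1:191183422-191183457, minus strand: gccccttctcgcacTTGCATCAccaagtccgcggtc
Chac1, chr2:119351035-119351070, plus strand: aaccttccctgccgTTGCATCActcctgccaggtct
Asns, chr6:7693211-7693246, minus strand: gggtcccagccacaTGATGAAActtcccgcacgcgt
Fgf21, chr7:45615608-45615643, minus strand: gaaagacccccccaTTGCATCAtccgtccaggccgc
Herpud1, chr8:94386303-94386338, plus strand: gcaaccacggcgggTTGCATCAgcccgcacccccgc

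The same 8 letters, TTGCATCA, stood in Atf3, Chac1, Fgf21 and Herpud1, whereas Asns had TGATGAAA in the other orientation. The Asns match was the one nearest its start, 23 to 16 bases before it, and the Chac1 match lay 193 to 186 bases before its start. The whole Asns window is given because Asns was the only one of the 10 genes to pass the test between groups, with the core again in capitals.

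Asns, chr6:7693210-7693459, minus strand: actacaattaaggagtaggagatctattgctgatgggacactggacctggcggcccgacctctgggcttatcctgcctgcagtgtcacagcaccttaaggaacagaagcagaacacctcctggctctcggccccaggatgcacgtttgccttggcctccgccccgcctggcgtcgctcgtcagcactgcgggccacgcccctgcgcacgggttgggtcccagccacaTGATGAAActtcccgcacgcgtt

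The Chac1 window is shown beside it because Chac1 varied most between animals of the 10 genes.

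Chac1, chr2:119350992-119351241, plus strand: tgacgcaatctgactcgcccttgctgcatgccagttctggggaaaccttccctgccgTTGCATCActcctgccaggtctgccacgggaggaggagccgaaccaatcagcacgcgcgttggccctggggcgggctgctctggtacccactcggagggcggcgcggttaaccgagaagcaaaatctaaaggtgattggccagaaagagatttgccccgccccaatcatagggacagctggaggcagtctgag

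Other motifs were rarer or absent from these windows. The cAMP response element TGACGTCA was in 1.55% of all windows and in 0 of the 10 genes. The ER stress response element (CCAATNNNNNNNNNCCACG) was whole in 0.113% of windows and in 0 of the 10. The Herpud1 window, however, ended with every letter of this element but the last, so a match across the gene start was not counted. The second form of the element, ATTGGNCCACG, was in 0.0304% of windows and in 1 of the 10 genes. That gene was Herpud1, with ATTGGGCCACG at 52 to 42 bases before the start. A match is a description of the letters and not evidence of binding in these muscles.

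Between Hira CKO and control, 1 of the 10 genes was lower (Asns), 0 were higher and 9 did not pass the test. The test was limma on log2(intensity + 16) with p-values adjusted over all 26423 probes by the Benjamini-Hochberg method, and a call was an adjusted p below 0.05. At an unadjusted limma p below 0.05, 0 of the 10 were higher and 2 were lower (Asns and Atf4), against 18.5% and 16.7% of all probes. Over the whole array 10.5% of probes were higher and 10% were lower by the same rule, so 1 call in 10 genes is near the background. In 0 of the 10 genes were the groups free of overlap, against 24.8% of all probes. Of the 10 differences 3 were above 0 and 7 below, with a median of −0.062 on the log2 scale, where the median of all probes was 0.012. All differences below are log2 values, Hira CKO minus control, and they understate the change of dim probes.

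**Figure D1:**
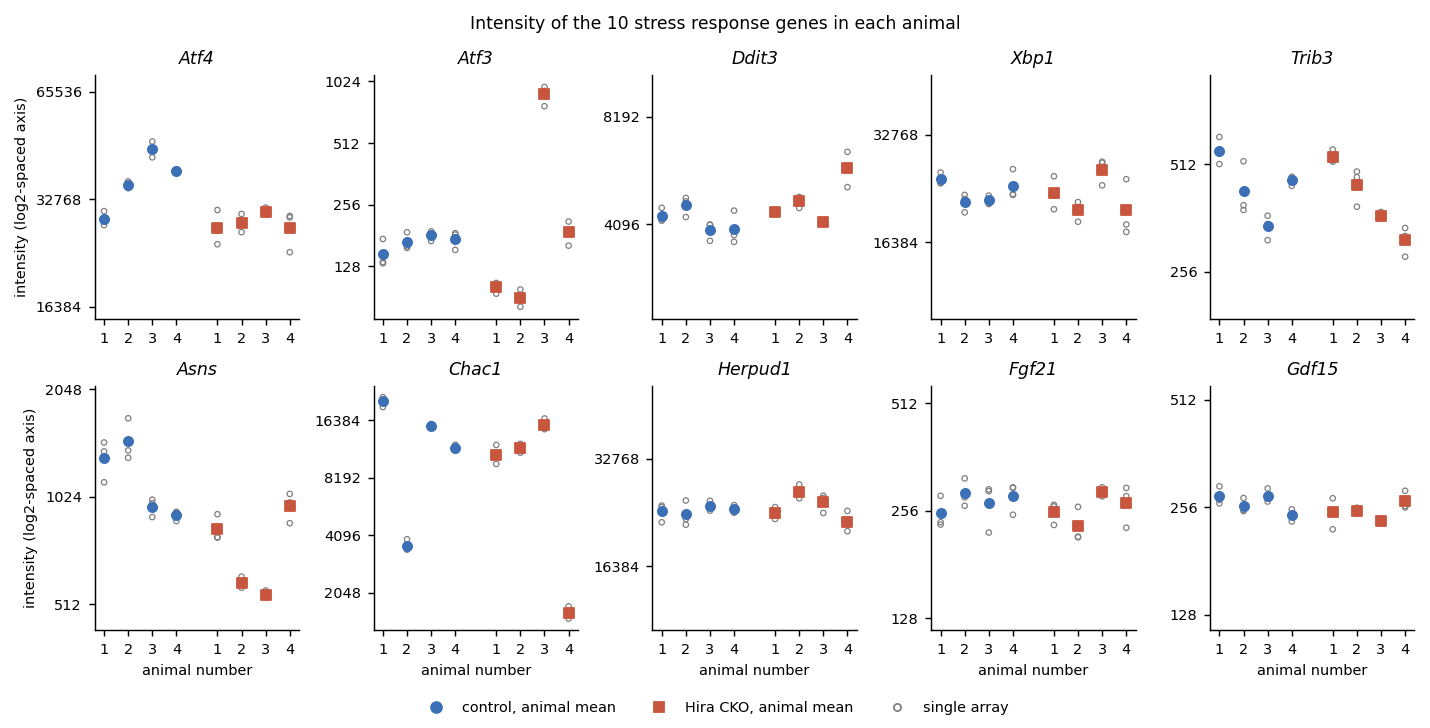
Intensity of the 10 genes in each of the 4 control and 4 Hira CKO animals, on axes spaced by log2; each open circle is 1 array and each filled symbol the mean of the 3 arrays of an animal. The groups overlap in every panel, Hira CKO 3 stands alone for Atf3 at 886, and control 2 and Hira CKO 4 lie low for Chac1 at 3619 and 1617.

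Of the transcription factors, Atf4 came closest to the threshold. Its intensity was 28867, 36013, 45317 and 39381 in control animals 1 to 4 and 27308, 28071, 30265 and 27321 in Hira CKO animals 1 to 4. Controls 2, 3 and 4 lay above every Hira CKO animal, while control 1 lay within their range. The difference was −0.39 (SE 0.13, 95% interval −0.67 to −0.11; limma adjusted p = 0.0514). An exact two-sided permutation test gave p = 0.0571, where 0.0286 is the smallest that 4 against 4 animals allow. Atf4 therefore did not pass. Leaving out control 1 gave −0.51 with an adjusted p of 0.00735, and over all 18 alternatives the adjusted p ran from 0.00286 to 0.123.

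Atf3, a repressor and activator induced early by many stresses, was high in a single animal. Its intensity was 147, 168, 181 and 174 in controls and 101, 89, 886 and 187 in Hira CKO. All 3 arrays of Hira CKO 3 were high, from 775 to 963, and the other Hira CKO animals lay on both sides of the controls. The mean difference was 0.25 (SE 0.56, 95% interval −0.99 to 1.496, limma adjusted p = 0.785), and without Hira CKO 3 it was −0.43 (adjusted p = 0.173). Within groups the animals differed with an SD of 1.01 log2, against 0.142 log2 between arrays of an animal. That SD between animals was larger than for 99.89% of probes, whose median was 0.136 log2.

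Ddit3, which encodes the pro-apoptotic factor CHOP, was 4323, 4628, 3949 and 3981 in controls and 4419, 4759, 4156 and 5892 in Hira CKO. Hira CKO 4 was the highest of the 8 animals and the others overlapped. The difference of 0.18 (95% interval −0.07 to 0.43) did not pass (limma adjusted p = 0.285). Xbp1, whose mRNA is spliced by the ER sensor IRE1 to give an active factor, was 24527, 21226, 21544 and 23579 in controls and 22455, 20130, 26143 and 20137 in Hira CKO. Its difference was −0.04 (95% interval −0.27 to 0.18, limma adjusted p = 0.795). A single probe value does not give the spliced share.

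Asns was the only call among the 10 genes. It encodes asparagine synthetase, which makes asparagine from aspartate and glutamine. Its intensity was 1315, 1464, 961 and 910 in controls and 830, 587, 545 and 964 in Hira CKO. Hira CKO 4 lay above controls 3 and 4, so the groups overlapped, and the other 3 Hira CKO animals were below every control. The means were 1163 ± 270.0 and 731.5 ± 199.4 (SD, n = 4 each). The difference was −0.66 (SE 0.20, 95% interval −1.12 to −0.21; limma adjusted p = 0.0447), and the exact permutation test gave p = 0.0857. The call was lost when control 1, 2 or 3 or Hira CKO 1, 2 or 3 was left out, at adjusted p of 0.0536 to 0.112, with a pseudocount of 50 (0.0522), and with a trended and robust variance model (0.0510). Under that last model Atf4 was called in its place (0.0472). Over all 18 alternatives the adjusted p ran from 0.000954 to 0.112 and the difference stayed between −0.81 and −0.54.

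**Figure D2:**
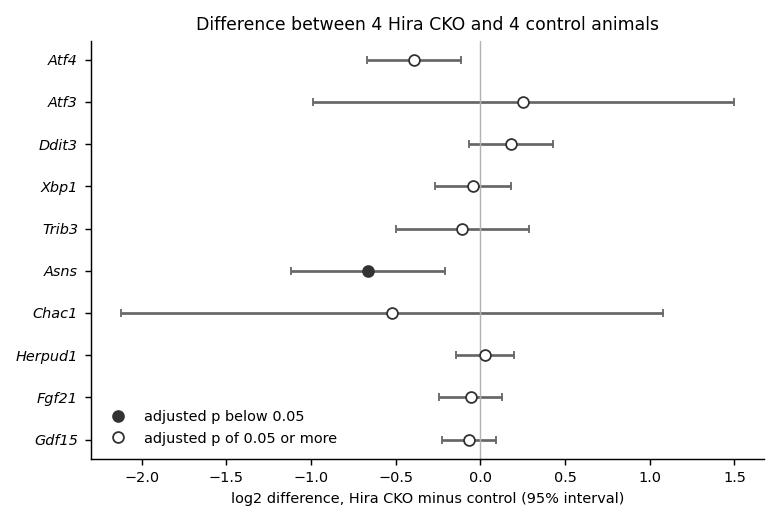
Difference of log2(intensity + 16) between 4 Hira CKO and 4 control animals for each gene, with its 95% interval from limma; the filled circle marks adjusted p below 0.05. Asns is the only filled circle at −0.66, the interval of Atf4 also lies below 0, and the intervals of Chac1 and Atf3 are the widest.

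Chac1, which encodes an enzyme that breaks down glutathione, spread more widely over the animals than any other of the 10 genes. Its intensity was 20534, 3619, 15343 and 11731 in controls and 10826, 11682, 15437 and 1617 in Hira CKO. The lowest animals were Hira CKO 4 and control 2, 1 in each group, and the other 6 lay between 10826 and 20534. The highest animal was 12.7 times the lowest. The arrays of an animal agreed closely: those of Hira CKO 4 read 1504 to 1741 and those of control 2 read 3446 to 3906. The SD was 1.31 log2 between animals of a group and 0.097 log2 between arrays, and the former was larger than for 99.96% of probes. The difference between groups was −0.52 (SE 0.72, 95% interval −2.12 to 1.08, limma adjusted p = 0.646), and 0.21 without Hira CKO 4 (adjusted p = 0.796).

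Trib3, a pseudokinase gene induced by ATF4 and CHOP, was 557, 432, 343 and 461 in controls and 536, 449, 367 and 315 in Hira CKO. The ranges nearly coincided, and the difference of −0.11 (95% interval −0.50 to 0.29, limma adjusted p = 0.709) changed sign under 3 of 18 alternatives. Herpud1, which encodes an ER membrane protein of the route that removes misfolded proteins, was 23336, 22902, 24173 and 23657 in controls and 23060, 26417, 24803 and 21816 in Hira CKO. Its difference was 0.03 (95% interval −0.15 to 0.20, limma adjusted p = 0.833).

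The hormone genes showed no difference that passed. Fgf21 was 252, 287, 269 and 282 in controls and 255, 232, 289 and 269 in Hira CKO, a difference of −0.06 (95% interval −0.24 to 0.13, limma adjusted p = 0.670). Gdf15 was 275, 258, 275 and 243 in controls and 248, 250, 235 and 266 in Hira CKO, a difference of −0.07 (95% interval −0.23 to 0.09, limma adjusted p = 0.544). The highest animal was 1.25 times the lowest for Fgf21 and 1.17 times for Gdf15. The table carries no detection calls, so the 543 probes of olfactory receptor genes were used as a gauge of signal without expression. Their median intensity was 117.4. Of them 33.0% were brighter than the Fgf21 probe, 33.5% brighter than Gdf15 and 34.4% brighter than Atf3. For Trib3 the share was 24.7%, for Asns 13.3%, for Ddit3 1.47% and for Chac1 0.368%, while 0 were brighter than Atf4, Xbp1 or Herpud1. The Fgf21 and Gdf15 values were thus read at signals that many silent probes also reach.

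Upstream of these genes, none of the 4 eIF2 kinase genes passed, and 3 were higher at an unadjusted limma p below 0.05, a threshold at which 18.7% of all 17742 genes were higher and 17.2% lower at their brightest probe. Eif2ak1, the haem-regulated kinase HRI, differed by 0.22 (limma adjusted p = 0.0748), Eif2ak3, the ER kinase PERK, by 0.31 (0.0935) and Eif2ak4, the amino acid sensor GCN2, by 0.31 (0.122). Eif2ak2, the viral RNA kinase PKR, differed by −0.05 (0.696). The kinase genes overlapped between groups in every case. Eif2ak3 passed when the median of the 3 arrays was taken (limma adjusted p = 0.0289), and Eif2ak1 passed in a fit of the 24 arrays with the animal as a random effect (0.0177).

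The largest difference close to eIF2 was in Eif2b5, the catalytic subunit of eIF2B, the exchange factor that phosphorylated eIF2 inhibits. It was 1655, 1904, 1869 and 1986 in controls and 438, 536, 543 and 540 in Hira CKO, with no overlap. It fell by 1.82 log2 (SE 0.09, limma adjusted p = 4.78e-06), and passed in all 18 alternatives. Eif2b5 was read at 1 probe. Its chromosomal position relative to Hira, whose alleles differ between the groups by design, was not examined. Of the 8 eIF2 and eIF2B subunit genes measured, Eif2b5 was the only 1 lower and Eif2b1, the alpha subunit, the only 1 higher. Eif2b1 rose by 0.32 (adjusted p = 0.0203). This call was lost without control 4 (0.0532), Hira CKO 1 (0.0616) or Hira CKO 2 (0.0576). The other 6 differed by 0.02 to 0.12 and did not pass.

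Of 7 measured genes that reverse or restrain eIF2 phosphorylation, 1 fell, the adaptor gene Nck1, by 0.41 (limma adjusted p = 0.0407). The Nck1 call was lost without control 3, control 4, Hira CKO 1 or Hira CKO 2 (0.0939 to 0.105), and with the median of the 3 arrays (0.0809). Ppp1r15a, the stress-induced regulator GADD34 that directs a phosphatase to eIF2, differed by −0.27 (0.126), and its constitutive relative Ppp1r15b by 0.08 (0.674). Ppp1r15a passed with the animal as a random effect (0.0137) and with sample weights (0.0365). The phosphatase genes Ppp1ca and Ppp1cc differed by −0.04 (0.802) and −0.29 (0.0891). Ppp1cc passed with the random effect (0.0318) and without control 1 (0.0403). Dnajc3, which encodes the kinase inhibitor p58IPK, gave −0.19 (0.222) at its brightest probe, which passed without control 1 (0.0384), and 0.27 (0.141) at the other. Impact, whose product restrains GCN2, differed by −0.01 (0.973).

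The 11 lists of other pathway genes held 131 genes, of which 123 were measured, each taken at its brightest probe. Of these 8 were higher in Hira CKO, 14 were lower and 101 did not pass, with a median difference of 0.003. Over all 17742 genes 11% were higher and 10.3% lower, with a median of 0.008. The share of pathway genes called lower was thus near the background, and the share called higher was below it. The gap was not tested. The other large falls were in Calr and Dele1.

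**Figure D3:**
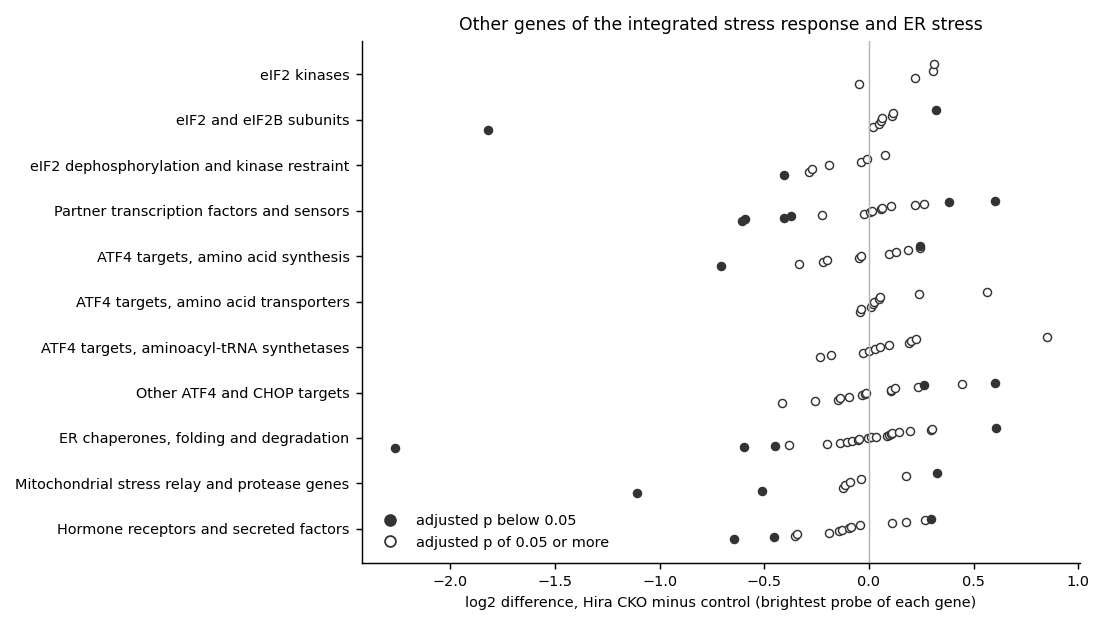
Difference of log2(intensity + 16), Hira CKO minus control, for the measured genes of the 11 pathway lists at their brightest probe; filled circles have adjusted p below 0.05, and Nupr1 stands in 2 lists. The points cluster near 0 except Calr at −2.265, Eif2b5 at −1.82 and Dele1 at −1.11.

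For the other ATF4 targets and the lists that follow, counts stand beside the 11% of all genes that were higher and 10.3% lower. No count was tested against these shares. Of 11 measured ATF4 targets of amino acid and folate synthesis 1 fell and 1 rose. Gpt2, a mitochondrial alanine aminotransferase gene, was 30560, 29763, 26897 and 27837 in controls and 14426, 15979, 19298 and 21522 in Hira CKO. It fell by 0.71 (limma adjusted p = 0.00336), with no overlap. Cbs, a gene of cysteine synthesis, rose by 0.25 (0.0355), and this call was lost in 7 of the 8 fits that left out an animal, all but that without control 1 (0.0597 to 0.0946). Its other probe gave −0.32 (0.512). Shmt2, a mitochondrial serine and glycine enzyme gene, differed by 0.09 (0.371) at its brightest probe but by −1.35 (9.9e-05) at its other probe. None of 9 amino acid transporter genes and none of 11 aminoacyl-tRNA synthetase genes passed at the brightest probe. At an unadjusted limma p below 0.05 these lists held 0 transporter genes and 3 synthetase genes that were higher (Aars, Iars and Nars, named after their values were seen), and 0 that were lower, against the same 18.7% and 17.2% of all genes. A second Eprs probe gave −0.97 (0.000852), where the brightest gave −0.03 (0.880). Probes of Cbs, Shmt2 and Eprs thus disagreed. Both Cbs probes and the second Shmt2 probe were dim, with 28.4%, 38.5% and 52.5% of the olfactory receptor probes brighter.

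Of 15 other ATF4 and CHOP targets 2 rose. Nupr1, a small stress-induced chromatin protein gene that also stands in the list of transcription factors, was 1447, 1493, 1863 and 2078 in controls and 2821, 2727, 2172 and 2693 in Hira CKO. The groups did not overlap and the rise was 0.60 (limma adjusted p = 0.0109). Ero1a, an ER oxidase gene read at a dim probe (42.5% of olfactory receptor probes brighter), rose by 0.27 (0.0453), a call lost in all fits that left out 1 animal except those without control 4 or Hira CKO 3 (0.0788 to 0.109), with cyclic loess normalization (0.0560) and with the median of the 3 arrays (0.152). Of the 15 transcription factor and sensor genes 2 rose and 4 fell. Creb3l2 and Creb3, membrane-bound bZIP factor genes, fell by 0.61 (0.0202) and 0.41 (0.00637), and Nfe2l1, a factor gene that controls proteasome genes, fell by 0.59 (0.0124). The Creb3l2 call was lost without Hira CKO 1 (0.0544) or Hira CKO 2 (0.0576), and with the animal as a random effect (0.114). The remaining calls, named after their values were seen, were Mbtps1, the site 1 protease gene, higher by 0.38 (0.0151), and Atf6b, lower at −0.37 (0.0498). The Atf6b call was lost without control 1, 2 or 3 or Hira CKO 1, 2 or 3 (0.0632 to 0.120), with median centring (0.0503), with either other pseudocount (0.0506 and 0.0535) and with the trended and robust model (0.0527).

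Of 22 measured ER chaperone, folding and degradation genes 1 rose and 3 fell. Hspa5, the chaperone BiP that is a standard marker of ER stress, was 7831, 9513, 10179 and 8824 in controls and 14508, 15473, 10354 and 15571 in Hira CKO. Hira CKO 3 lay just above the highest control, and the rise was 0.61 (limma adjusted p = 0.0135). Calr, the calcium-binding chaperone calreticulin, was 1382, 1670, 1851 and 1544 in controls and 346, 365, 255 and 331 in Hira CKO, and fell by 2.265 (limma adjusted p = 4.84e-06). These chaperone genes, each read at 1 probe, therefore changed in opposite directions. Dnajb11, a cochaperone of BiP, fell by 0.60 at its brightest probe (0.00216), whereas its other probes gave 0.07 and 0.12. A second Os9 probe was higher by 0.56 (0.00216), where the brightest Os9 probe gave 0.14 (0.439). Manf, a gene for a secreted ER stress protein whose probe was dim (38.9% of olfactory receptor probes brighter), fell by 0.45 (0.0181), a call lost without control 3 (0.0535) or Hira CKO 1 (0.0547). The other main ER stress targets did not pass, with Hsp90b1 at 0.11 (0.676), Dnajb9 at 0.30 (0.170) and Sdf2l1 at −0.20 (0.146).

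Of 8 measured genes of mitochondrial stress signalling and proteolysis 1 rose and 2 fell. Dele1, which encodes the protein that relays mitochondrial stress to the kinase HRI, was 3127, 2823, 3002 and 3482 in controls and 1419, 2011, 1409 and 1054 in Hira CKO. Every Hira CKO animal was below every control, and Dele1 fell by 1.11 (SE 0.17; limma adjusted p = 0.00153). Dele1 was read at 1 probe, and its call held in all 18 alternatives. Oma1, the protease that cleaves DELE1, differed by −0.09 (0.491). Hspe1, a mitochondrial chaperonin gene, fell by 0.51 (0.00104) and Chchd10 rose by 0.32 (0.0144).

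Of the 14 genes for receptors of the hormones and for other muscle-secreted factors 1 rose and 2 fell. Klb, the coreceptor gene of FGF21, differed by −0.15 (limma adjusted p = 0.230), and Gfral, the receptor gene of GDF15 that is known from the hindbrain, by −0.09 (0.633). The Klb probe was dim, with 63.35% of olfactory receptor probes brighter. The secreted factor gene Il15 fell by 0.65 (0.0305), a call lost without control 2, Hira CKO 1, Hira CKO 3 or Hira CKO 4 (0.0517 to 0.0686). Bdnf fell by 0.45 (0.0112), again at a dim probe (35.9% of olfactory receptor probes brighter). Metrnl rose by 0.30 (0.0257) at its brightest probe and was lower at −0.53 (0.00659) at its other probe. The first of these calls was lost without control 3, control 4, Hira CKO 2 or Hira CKO 3 (0.0601 to 0.0691).

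The genes nearest in profile were found for Asns by the mean absolute distance of centred log2 values over the 8 animals. They were Paqr9 at a distance of 0.122, Lgals1 at 0.136 and Nans at 0.142 log2. Lgals1 encodes the lectin galectin-1. Each was chosen on the same 8 animals, so its profile already holds the group difference of Asns and was not tested further. For Chac1 and Atf3, which were not called, the 5 nearest genes were added after their values were seen, to describe animals that stood apart. They too were chosen on the same 8 animals. That they share the high or low animals of Chac1 or Atf3 therefore follows largely from the choice.

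The genes nearest to Chac1 were Cish (0.461 log2), Tmem50a (0.467), Itga1 (0.555), Pdk4 (0.569) and Ddit4 (0.572). Ddit4, an inhibitor gene of mTORC1 signalling and itself a known ATF4 target, was 11204, 4071, 19620 and 11958 in controls and 5110, 12569, 19430 and 6014 in Hira CKO. Pdk4, a kinase gene that restrains pyruvate oxidation in fasting, was 58277, 14015, 44230 and 72209 in controls and 39964, 25248, 47463 and 20044 in Hira CKO. Control 2 was the lowest control for Chac1, Cish, Itga1, Pdk4 and Ddit4. Hira CKO 4 was the lowest Hira CKO animal for Chac1, Cish, Itga1 and Pdk4, whereas for Ddit4 that was Hira CKO 1. The low Tmem50a profile of Hira CKO 4 came from a single array, with readings from 22 to 8456 over its 3 arrays.

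The genes nearest to Atf3 were Ankrd1 (0.275 log2), Epha3 (0.311), Hspa1b (0.333), Olfr1396 (0.361) and Gal (0.362). Ankrd1, a stretch-responsive muscle ankyrin repeat gene, was 1865, 1343, 1446 and 1702 in controls and 817, 687, 4679 and 1009 in Hira CKO. Hspa1b, an inducible heat shock protein gene, was 1066, 1319, 1900 and 1483 in controls and 1147, 1249, 4109 and 1927 in Hira CKO. Hira CKO 3 was the highest of the 8 animals for each of these 5 genes, although its 3 arrays ranged from 993 to 4562 for Epha3 and from 593 to 2411 for Olfr1396. The summed level of 11 immediate early genes, which respond to handling and dissection, was 28441 to 42123 in controls and 28495 to 31145 in Hira CKO, with 1 of 11 lower (Btg2), and its part in these profiles was not tested.

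**Figure D4:**
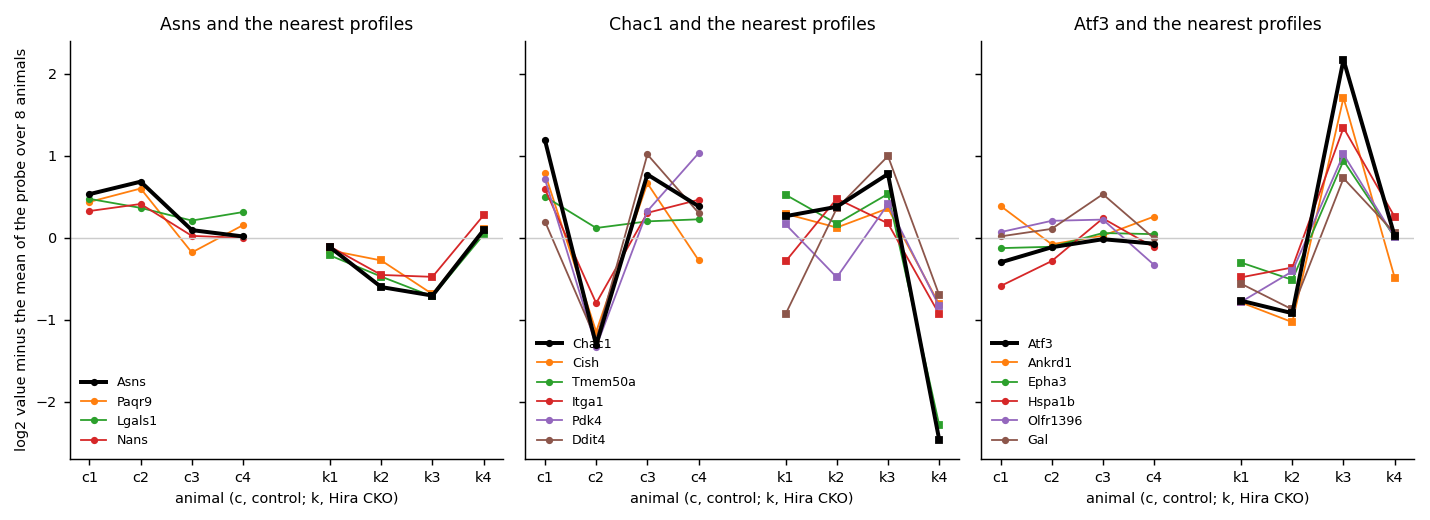
Centred log2 values over 4 control (c1 to c4) and 4 Hira CKO (k1 to k4) animals for Asns, Chac1 and Atf3 in black and their nearest genes in colour; each point is 1 animal. Chac1 dips in control 2 and Hira CKO 4, and Atf3 and its nearest genes peak in Hira CKO 3.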

How the data were processed

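The authors deposited 1 table of linear probe intensity values for 24 arrays, already on a common scale (highest value 439069.7 on every array). The sources used here name no scanner, background method or software. Probes were named from the platform annotation, with symbols updated by RefSeq (GRCm38.p6). Of 26423 probes 20377 had 1 symbol. Values below 0 were set to 0, 16 was added, and log2 values of the 3 arrays of an animal were averaged. The comparison of groups used lmFit and eBayes of limma 3.58.1 (R 4.3.3), with Benjamini-Hochberg adjustment over all probes. Bracketed values after a difference are these adjusted p-values. Exact permutation tests used the 70 assignments of 8 animals. The 10 genes and all lists were chosen with earlier results of these data known. Named pathway genes are kinases, phosphatases and up to 4 called genes per list with the largest change, and others were named after their values were seen. Alternatives changed the pseudocount (1 or 50), normalization, filter, averaging, block, variance model, weights, threshold and animals. A simulated set of 26423 probes held 67 probes shifted by 0.5 log2, 67 by 1 log2 and 66 by 2 log2. The fit found 40.3%, 82.1% and 100% of these, with 10 false calls. A far larger share of real probes was called (10.5% higher and 10% lower), and the adjustment depends on that share. The simulated rates therefore do not give the sensitivity of the real comparison. The number of animals and of arrays limits the precision. Array batches were not given, so batch and group cannot be told apart. Labels do not say whether animals were littermates.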

Additional observations from a re-analysis of the deposited data

Results flagged for a closer look

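In 4 of the 86 groups of 4 animals examined, 1 animal lay apart from the other 3 by more than Dixon's 95% limit for the gap divided by the range, where chance gives about 1 in 20. The ratio was taken on log2 values, and the readings below are intensities. For Chac1, Hira CKO 4 read 1617 against 10826 to 15437 (gap over range 0.841). For Hira, control 1 read 569 against 467 to 473 (0.938). For Eif2b5, Hira CKO 1 read 438 against 536 to 543 (0.942), still far below the controls. For Bdnf, Hira CKO 3 read 207 against 173 to 179 (0.832).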

How the results depend on the processing

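Of the 10 genes, 0 were higher under every alternative, and the 1 lower became 0 with a pseudocount of 50 or at an adjusted p below 0.01. It became 2 with the animal as a random effect over 24 arrays, with sample weights, or at an adjusted p below 0.10, and 0 to 1 when each animal was left out. Of the pathway genes, the 8 higher became 13 with the random effect, 0 at 0.01, 14 at 0.10 and 4 to 7 without an animal. The 14 lower became 20 with the random effect, 7 at 0.01, 17 at 0.10, 17 with the probe of smallest p and 9 to 15 without an animal. The replicate block on the animal number gave 0 higher and 1 lower of the 10, and 8 and 15 of the pathway genes. The labels do not say whether the numbers pair the animals. Same-numbered animals correlated at 0.296, 0.093, −0.0643 and 0.0673, and only animal 1 correlated best with its own number. With 4 animals per group these values cannot settle whether the animals were paired. With the block Asns (0.0552), Cbs (0.0713), Ero1a (0.0598) and Atf6b (0.0917) were not called, and Atf4 (0.0375) and Eif2ak3 (0.0307) were. No called value changed sign. The cause of these shifts was not tested. Probes without clear signal over silent genes limit Fgf21, Gdf15, Atf3, Trib3 and Klb, and the calls of Cbs, Ero1a, Manf and Bdnf.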
